A study of Rattus norvegicus with 6 samples.

Results

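Neurons release transmitter from synaptic vesicles and neuropeptides from dense-core granules, and both kinds of carrier fuse with the plasma membrane through SNARE proteins. Synaptotagmins sense the calcium that triggers fusion, complexins act on the assembled SNAREs, Rab3 GTPases and the RIM and Munc13 proteins dock and prime vesicles at the active zone, and dynamin and amphiphysin retrieve the membrane. Sensory neurons of the dorsal root ganglion use this machinery for glutamate and peptide release. Several of the proteins, such as synaptotagmin 11 and the synaptophysin-like protein Sypl1, are also made outside neurons.

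The genes described here are 36 symbols for synaptic vesicle and secretory granule proteins, matched to the deposited table by gene name, and all 36 were among the 16551 genes of the mRNA table, each on 1 row. Of the 36, 27 had at least 100 reads over the 6 samples and 9 had fewer, and these 9 are treated apart. The high-glucose group was 3 samples of dissociated cells from lumbar and sacral dorsal root ganglia of rats, cultured for 48 h at a glucose level of 45 mmol/L (labelled DM), and the control group was 3 samples of the same cells diluted in DMEM, whose glucose level was not given. No strain, age or genotype was given for the rats, none of the 6 samples is labelled as an osmotic control, and the labels do not say whether the samples of a group came from separate cultures. Every p-value below thus rests on the spread among these 6 samples alone, and that spread may be technical. Levels are given as CPM, a gene's reads scaled to the authors' library size, and each log2 fold change is high glucose minus control with its standard error (SE), from limma, with 3 samples per group. Levels are not compared between genes, because they were not divided by transcript length.

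The mRNA table held 28780612 to 33108451 reads per high-glucose sample and 28949744 to 32181594 per control sample. The cultures were checked against marker lists. Some neuronal markers were close to 0. Rbfox3, the nuclear marker NeuN, had 9 reads over the 3 high-glucose samples and 6 over the 3 control samples. Isl1 and Pou4f1, transcription factors of sensory neurons, had 2 reads and 1 read in high glucose and 7 reads each in control. Of 14 neuronal markers 7 were lower and none higher in high glucose. Their share of calls was near the 50.5% of all mRNA genes, but every call was a lower one. Among all mRNA genes 25.5% were lower and 24.9% higher. Of the 14, 6 were called at least 2-fold lower, where 8.25% of all mRNA genes were called with such a change in either direction. The marker lists were chosen with earlier results of these data known, so the shares here are a description and not a test. Under 100 reads were found for 5 of the 14, and 14.7% of all such genes were called. The summed level of the 14 was 69.4 to 72.3 CPM in high glucose and 115 to 120 CPM in control. All 7 Schwann cell markers were lower, with summed levels of 354 to 388 CPM in high glucose and 542 to 565 CPM in control, and 4 of 5 mural cell markers were lower (4098 to 4202 CPM in high glucose and 8693 to 8817 CPM in control). With plain library totals in place of the authors' scaled ones, 6 Schwann cell markers were lower and Pmp22 did not pass (-0.04, adjusted p from limma of 0.323). Of 5 macrophage markers 2 were higher and none lower (26.3 to 27.5 CPM in high glucose and 18.5 to 19.2 CPM in control). That is 40% higher against 24.9% of all mRNA genes, and 40% called against 50.5%. Of 6 fibroblast markers 3 were higher and 3 lower, of 5 satellite glia markers 1 was higher and 2 lower, and of 3 endothelial markers none passed. After quantile normalization, and also with plain library totals, 3 fibroblast markers were higher and 2 lower. Under either setting 1 mural cell marker was higher and 4 lower. The part that these differences in marker levels have in the changes below was not tested. In these bulk samples, fewer cells of a type and less RNA per cell cannot be told apart.

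Genes of vesicle release moved in both directions. The sum over the 36 genes was 372 to 379 CPM in high glucose and 365 to 381 CPM in control, so the groups overlapped. A few genes with many reads carried much of this sum, such as Vamp2, Syt11 and Sypl1 (means of 64.2, 62.9 and 53.2 CPM in high glucose). Genes with few reads hardly enter it, such as Slc17a6 (1.19 CPM in high glucose and 6.90 CPM in control). Slc17a6, the vesicular glutamate transporter VGLUT2, and Rims1, a scaffold of the active zone, were 5.87-fold and 5.23-fold lower, whereas Syt1, the calcium sensor of fast release, was 1.84-fold higher and Vamp1, a vesicle SNARE, 1.66-fold higher. At an adjusted p under 0.05 from limma, 24 of the 36 were called, 8 higher and 16 lower, where 50.5% of all mRNA genes were called. Among all mRNA genes 24.9% were higher and 25.5% lower. Samples of the groups did not overlap in 27 of the 36, against 57.6% of all mRNA genes, and 10 of the 36 were called with at least a 2-fold change, against 8.25%. The list was chosen with earlier results of these data known, so these shares do not test whether it changed more than other genes. The median log2 fold change of the list was -0.36, against 0.01 over all mRNA genes. Among the 27 genes with at least 100 reads, 18 were called, 7 higher and 11 lower, where 60.0% of all mRNA genes with that many reads were called, 29.1% higher and 30.8% lower, so the share that rose lay near the background. The groups did not overlap in 21 of the 27, against 66.0% of all such genes, and 4 of the 27 passed with at least a 2-fold change, against 6.67%.

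The direction of small changes depends on the authors' scaling. With plain library totals in place of the scaled library sizes, the log2 fold change of the median mRNA gene moved up by 0.11. The list then had 11 higher and 12 lower in place of 8 and 16, and all mRNA genes had 5932 higher and 2847 lower in place of 4126 and 4228.

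**Figure D1:**
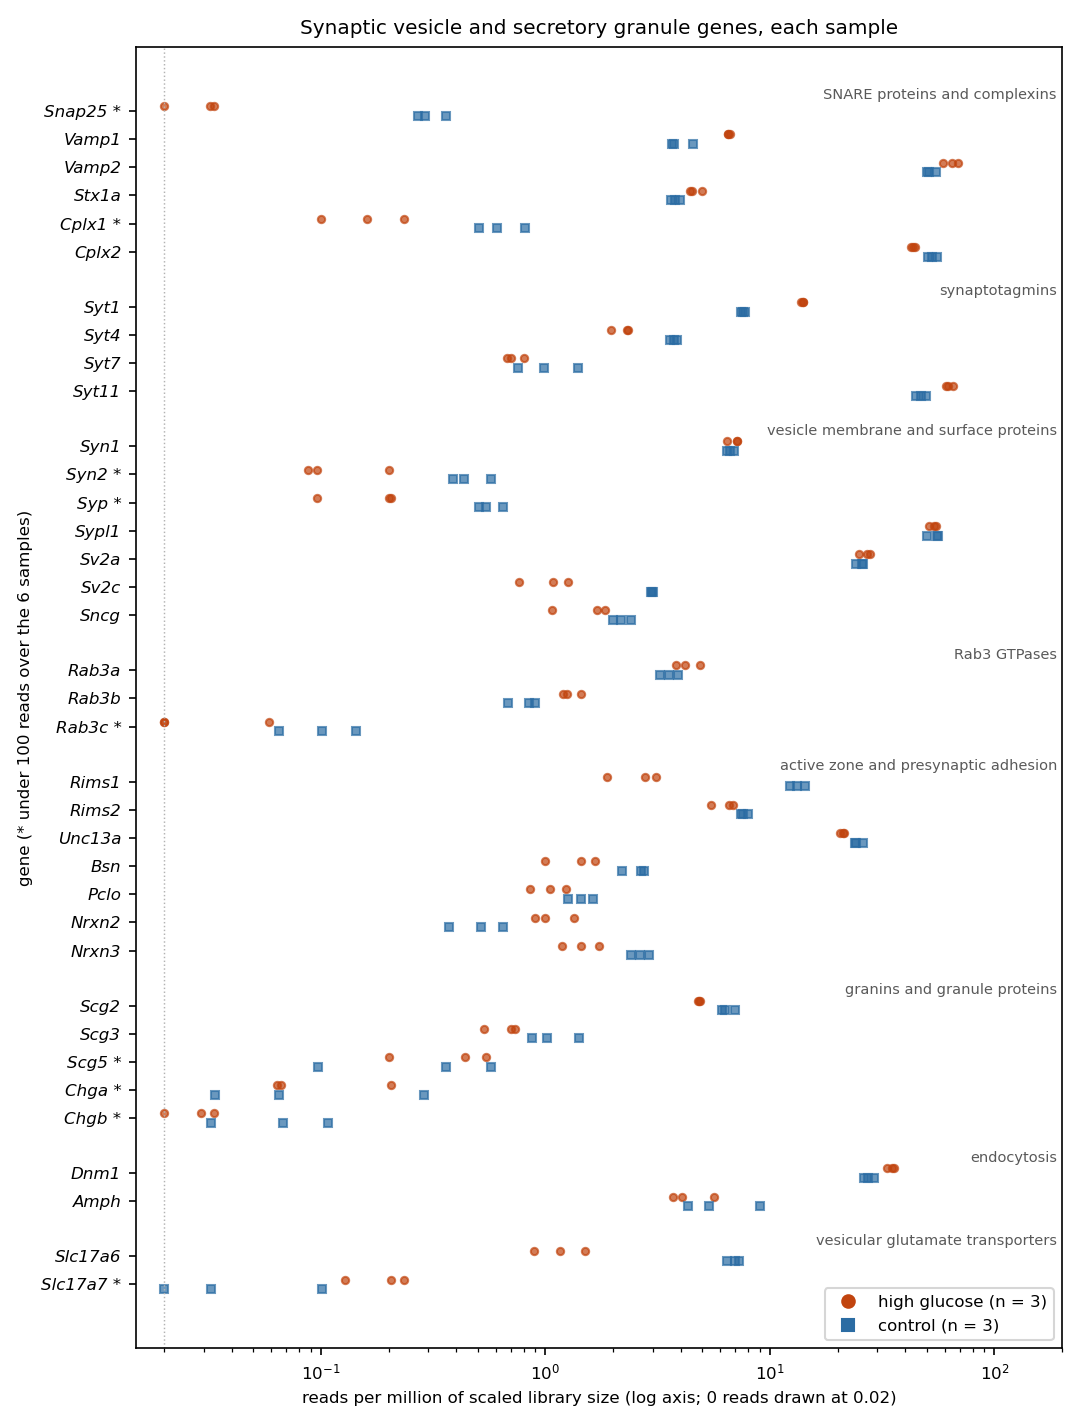
Level of each of the 36 genes in each sample, in CPM on a log axis, with genes grouped by role and marked with a star where they had under 100 reads. Circles are the 3 high-glucose samples and squares the 3 control samples. The circles of Slc17a6 lie between 0.894 and 1.50 CPM and its squares between 6.46 and 7.27 CPM, while the samples of Syn1 and Sypl1 overlap.

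**Figure D2:**
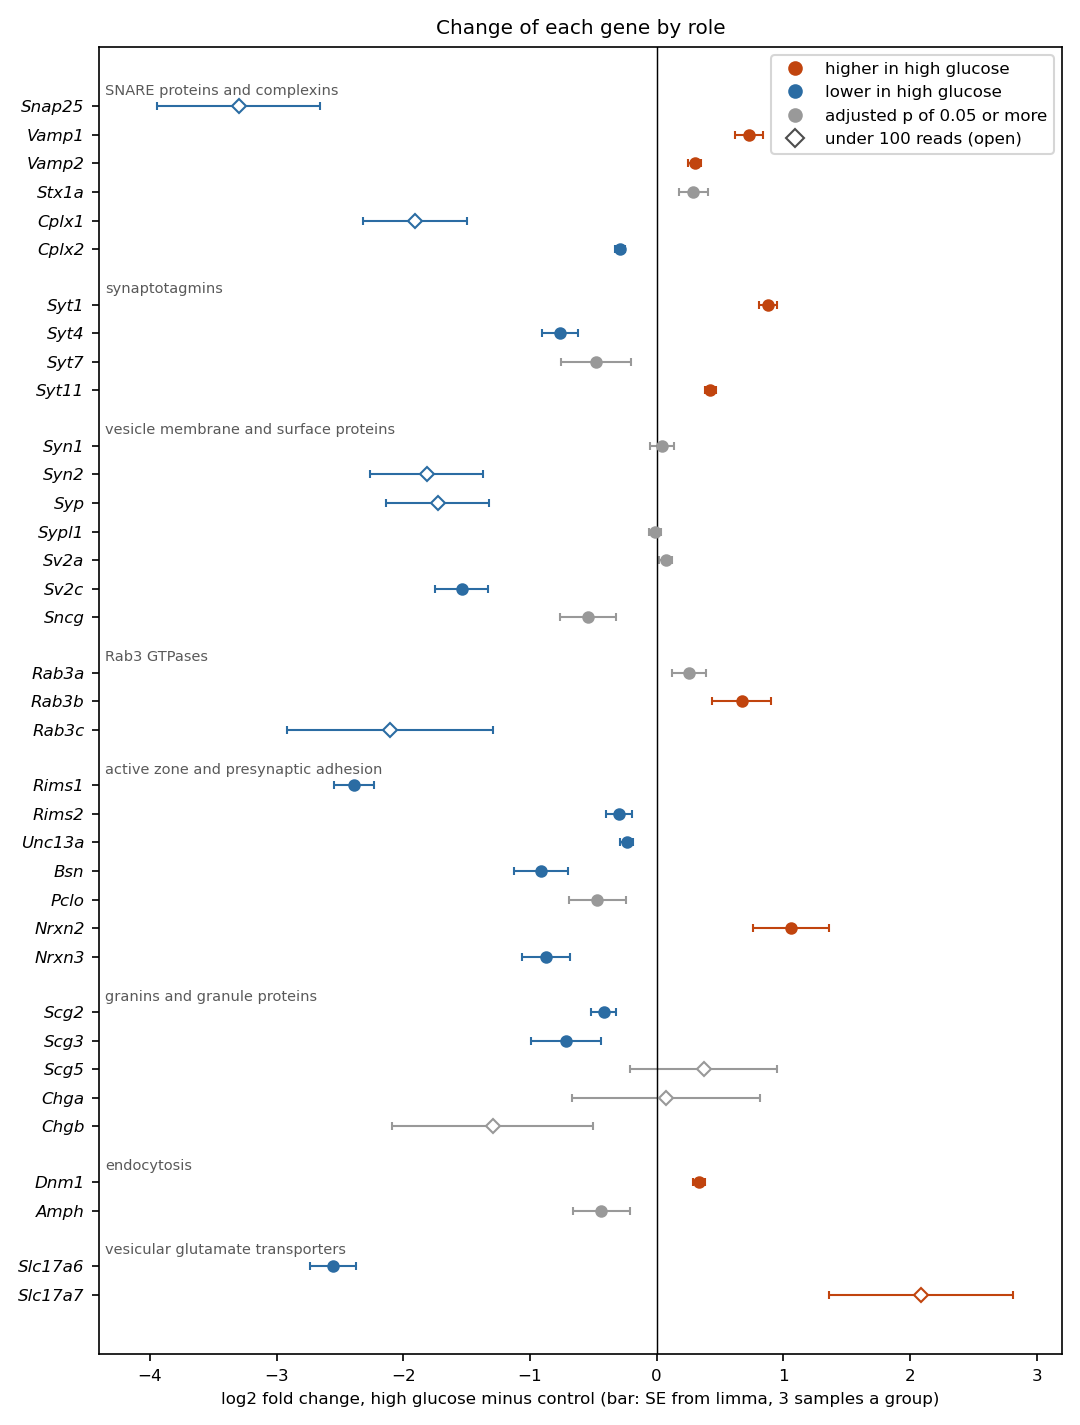
Log2 fold change (high glucose minus control) of each gene with its SE from limma, 3 samples per group. Filled circles had at least 100 reads and open diamonds fewer, and grey marks did not pass at an adjusted p of 0.05. Of the 7 genes of the active zone and presynaptic adhesion, 5 lie in the lower group, and no gene of the vesicle membrane and surface lies in the higher one, whereas with plain library totals 3 active zone genes are lower and Sv2a is higher. Over all mRNA genes 25.5% are lower and 24.9% higher.

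Promoter sequence was read for 29 of the 36 genes, which matched the RefSeq table of rat promoters (build GRCr8, 250 bases before to 50 after the start of the gene) by symbol. Chga, Nrxn2, Nrxn3, Rims2, Snap25, Sypl1 and Syt7 had no entry. The windows were searched on both strands for the cAMP response element (CRE), TGACGTCA, known from promoters of granins and synapsin, and for the left part, TTCAGCACC, and the right part, a stretch with 1 open position, of RE1, the element that the repressor REST binds in neuronal genes. The CRE stood in 3 of the 29 windows (Scg2, Syn1 and Vamp1) and in 1.83% of all 33469 rat promoters in the table. The left part of RE1 stood in Scg2 and Unc13a and in 0.356% of all promoters, the right part in Pclo and in 0.454%, and no match overlapped another. The windows of Scg2, Vamp1, Syn1 and Unc13a are shown because they hold these letters and their genes differed in the outcome of the comparison. Capitals mark the matches, and the left part of RE1 reads as its reverse complement, GGTGCTGAA:
Scg2 (chr9:88256817-88257116, minus strand): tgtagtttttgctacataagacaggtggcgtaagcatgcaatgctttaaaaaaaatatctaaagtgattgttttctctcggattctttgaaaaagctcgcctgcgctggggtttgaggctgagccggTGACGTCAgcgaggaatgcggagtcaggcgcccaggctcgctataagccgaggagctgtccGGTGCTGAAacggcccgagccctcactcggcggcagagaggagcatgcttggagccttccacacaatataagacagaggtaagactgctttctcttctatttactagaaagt
Vamp1 (chr4:159698644-159698943, plus strand): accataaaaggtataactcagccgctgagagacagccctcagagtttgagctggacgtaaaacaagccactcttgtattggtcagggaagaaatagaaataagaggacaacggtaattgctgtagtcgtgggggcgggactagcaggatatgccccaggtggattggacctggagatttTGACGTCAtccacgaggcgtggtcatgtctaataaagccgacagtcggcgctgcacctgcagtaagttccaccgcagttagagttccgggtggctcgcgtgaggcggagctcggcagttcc
Syn1 (chrX:3725495-3725794, plus strand): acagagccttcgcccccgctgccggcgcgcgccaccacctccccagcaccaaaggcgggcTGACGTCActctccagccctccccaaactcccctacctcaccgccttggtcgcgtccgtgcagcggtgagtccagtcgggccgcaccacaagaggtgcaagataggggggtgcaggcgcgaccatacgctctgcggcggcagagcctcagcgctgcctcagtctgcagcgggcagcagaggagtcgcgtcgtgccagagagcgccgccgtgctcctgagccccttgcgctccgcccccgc
Unc13a (chr16:18415737-18416036, minus strand): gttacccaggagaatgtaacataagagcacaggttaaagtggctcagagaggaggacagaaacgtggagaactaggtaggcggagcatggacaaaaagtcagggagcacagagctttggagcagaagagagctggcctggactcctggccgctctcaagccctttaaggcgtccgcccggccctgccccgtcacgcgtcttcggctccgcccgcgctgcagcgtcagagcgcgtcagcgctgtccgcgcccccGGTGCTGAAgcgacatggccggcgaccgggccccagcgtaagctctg
The CRE began 123 bases before the start site in Scg2, 71 in Vamp1 and 190 in Syn1, and the RE1 match began 62 bases before it in Scg2 and at base 4 after it in Unc13a. Of the genes with a CRE, Vamp1 was higher, Scg2 lower and Syn1 did not pass. The promoters of Rims1 and Slc17a6 held none of the 3 motifs in these windows. The median GC content of the 29 windows was 62.7%, against 51.7% over all promoters.

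Of 6 SNARE and complexin genes, 2 were higher (Vamp1 and Vamp2) and 3 lower (Snap25, Cplx1 and Cplx2), and with plain library totals Stx1a was higher too. The shares over all mRNA genes, for this and the next role lists, were 24.9% higher and 25.5% lower. Vamp1 (ENSRNOG00000019219), the synaptobrevin of many sensory and motor synapses, had 6.50, 6.67 and 6.54 CPM in high glucose and 3.74, 3.66 and 4.53 CPM in control. All high-glucose samples lay above all control samples, and the log2 fold change was 0.73 ± 0.11 (adjusted p = 0.000111). Vamp2, the main synaptobrevin of the brain and also made in other cells, had 64.6, 59.2 and 68.7 CPM in high glucose against 54.7, 51.4 and 49.9 CPM in control, again without overlap (0.30 ± 0.05, adjusted p = 0.000232). Stx1a, the plasma membrane SNARE syntaxin 1A, averaged 4.64 ± 0.31 CPM in high glucose and 3.79 ± 0.16 CPM in control (SD, n = 3 each). Its groups did not overlap, but it did not pass (0.29 ± 0.12, adjusted p = 0.0522). Its adjusted p spanned 0.0102 to 0.173 over the alternatives, with calls under plain library totals (0.0102), a single variance prior (0.0188) and both filters on low genes (0.0373 and 0.0377). Cplx2, a complexin, had 44.3, 42.6 and 43.3 CPM in high glucose and 55.3, 52.9 and 50.7 CPM in control, and was lower without overlap (-0.29 ± 0.04, adjusted p = 4e-05).

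Among the synaptotagmins, Syt1 rose and Syt4 fell. Syt1 (ENSRNOG00000006426) had 14.0, 14.1 and 13.8 CPM in high glucose and 7.60, 7.41 and 7.75 CPM in control. The groups were far apart, with an SD of 0.168 CPM in each, and the log2 fold change was 0.88 ± 0.07 (adjusted p = 1.54e-07). Syt11, which like Syt4 lacks calcium binding of the usual kind and is made in glia and macrophages too, had 62.1, 65.5 and 61.0 CPM in high glucose and 49.4, 46.9 and 44.5 CPM in control. It was 1.34-fold higher without overlap (0.42 ± 0.04, adjusted p = 2.32e-06). Syt4, its closest relative, an activity-regulated synaptotagmin of granules, had 2.30, 2.33 and 1.96 CPM in high glucose and 3.60, 3.72 and 3.86 CPM in control. It was 1.70-fold lower without overlap (-0.76 ± 0.14, adjusted p = 0.000506). Syt7, the sensor of slow and asynchronous release, had 0.800, 0.702 and 0.674 CPM in high glucose and 0.756, 1.39 and 0.981 CPM in control, overlapped between groups and did not pass (-0.48 ± 0.28, adjusted p = 0.175).

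Of the 7 genes of the vesicle membrane and surface, 3 were lower and none higher, or 1 higher (Sv2a) with plain library totals. Over all mRNA genes 25.5% were lower and 24.9% higher. Sv2c, one of the SV2 glycoproteins and a receptor for botulinum toxin A, had 1.27, 1.08 and 0.762 CPM in high glucose against 2.99, 2.94 and 3.01 CPM in control. It was 2.91-fold lower (-1.54 ± 0.21, adjusted p = 3.36e-05), with no overlap. Sv2a, the SV2 protein bound by levetiracetam, averaged 26.6 ± 1.6 CPM in high glucose and 25.3 ± 0.96 CPM in control (SD, n = 3 each), with a value of 0.07 ± 0.05 that did not pass. With plain library totals Sv2a had 0.19 and passed (adjusted p = 0.0127, within 0.0127 to 0.639 over its alternatives). The other SV2 gene, Sv2b, stood in the lncRNA table, which was scaled on its own and tested on its own. It had 30, 41 and 61 reads in high glucose and 254, 296 and 319 reads in control. These groups were far apart, and Sv2b was 8.30-fold lower (-3.05 ± 0.17, adjusted p = 7.21e-09), in a table where 12.8% of 1012 entries passed. Syn1, synapsin I, which tethers vesicles to actin, averaged 6.88 ± 0.40 CPM in high glucose and 6.67 ± 0.27 CPM in control (0.04 ± 0.09, adjusted p = 0.73). Sypl1, a synaptophysin relative of non-neuronal vesicles, averaged 53.2 ± 1.9 CPM in high glucose and 53.7 ± 3.2 CPM in control (-0.01 ± 0.05, adjusted p = 0.833). The groups of both genes overlapped. Sncg, gamma-synuclein, which is abundant in sensory neurons, had 1.07, 1.69 and 1.85 CPM in high glucose and 2.16, 2.01 and 2.40 CPM in control. Every high-glucose sample lay below every control sample, but the gene did not pass (-0.54 ± 0.22, adjusted p = 0.0552). Its adjusted p spanned 0.0312 to 0.229 over the alternatives. It was 0.0312 without high-glucose sample 3, 0.0326 after quantile normalization, and 0.0426 and 0.0428 with the filters on low genes.

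Of the 3 Rab3 GTPases, which cycle on and off vesicles, Rab3b was higher and the scarce Rab3c lower, and both calls were lost under several alternatives. Differences between the Rab3 genes were not tested. Rab3a, the main neuronal form, had 4.17, 3.80 and 4.87 CPM in high glucose and 3.24, 3.92 and 3.55 CPM in control, which overlap (0.26 ± 0.13, adjusted p = 0.134). With plain library totals it passed (0.37, adjusted p = 0.0325, within 0.0325 to 0.409). Rab3b, a form of endocrine and epithelial as well as neuronal cells, had 1.43, 1.25 and 1.20 CPM in high glucose and 0.900, 0.679 and 0.846 CPM in control. It was higher without overlap (0.67 ± 0.23, adjusted p = 0.0283). Over the alternatives this p spanned 0.012 to 0.0994, and the call was lost without high-glucose sample 1 (0.0994), high-glucose sample 2 (0.0579) or control sample 2 (0.0884), and after quantile normalization (0.0543).

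Of 7 genes of the active zone and presynaptic adhesion, 5 were lower (3 with plain library totals) and 1, Nrxn2, was higher. Over all mRNA genes 25.5% were lower and 24.9% higher. Rims1 (ENSRNOG00000011000), a RIM scaffold that binds Rab3 and tethers calcium channels, had 2.77, 3.10 and 1.88 CPM in high glucose and 14.3, 12.3 and 13.3 CPM in control. The groups were far apart, with 244 reads in high glucose and 1170 in control (-2.39 ± 0.16, adjusted p = 2.75e-08). Rims2, the other long RIM, had 6.83, 6.54 and 5.45 CPM in high glucose and 7.99, 7.41 and 7.61 CPM in control. It was 1.23-fold lower (-0.30 ± 0.10, adjusted p = 0.0278), and its call depended on the samples and the scaling. Over the alternatives this p spanned 0.0194 to 0.163, and the call was lost without high-glucose sample 3 (-0.20, adjusted p = 0.121), control sample 1 (0.0846) or control sample 3 (0.0565), under a single variance prior (0.0629) and with plain library totals (-0.18, adjusted p = 0.163). Unc13a, the priming factor Munc13-1, had 21.4, 21.1 and 20.6 CPM in high glucose and 26.0, 24.3 and 23.8 CPM in control (-0.23 ± 0.05, adjusted p = 0.00166). With plain library totals it had -0.12 and did not pass (adjusted p = 0.0651, within 0.00137 to 0.0651). Bsn and Pclo encode bassoon and piccolo, giant scaffolds of the active zone. Bsn had 1.43, 1.66 and 0.997 CPM in high glucose and 2.66, 2.75 and 2.20 CPM in control and was 1.88-fold lower (-0.91 ± 0.21, adjusted p = 0.00278). Pclo had 1.23, 1.05 and 0.850 CPM in high glucose and 1.44, 1.26 and 1.62 CPM in control, and did not pass although its groups did not overlap (-0.47 ± 0.23, adjusted p = 0.105).

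The neurexins, presynaptic receptors that bind neuroligins across the cleft, went in opposite directions. Nrxn2 had 0.900, 1.34 and 0.997 CPM in high glucose and 0.648, 0.518 and 0.372 CPM in control, and was 2.09-fold higher (1.06 ± 0.30, adjusted p = 0.00903). The call rested on few reads, 103 in high glucose and 45 in control, and without high-glucose sample 2 it was lost (0.90, adjusted p = 0.0503, within 0.00437 to 0.0503 over its alternatives). Nrxn3 had 1.43, 1.18 and 1.73 CPM in high glucose and 2.41, 2.88 and 2.64 CPM in control, without overlap, and was 1.83-fold lower (-0.88 ± 0.19, adjusted p = 0.00157). It passed under every alternative run.

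Of 5 granins and granule proteins, 2 were lower (1 with plain library totals) and none higher, where 25.5% of all mRNA genes were lower. Scg2, secretogranin II, the precursor of secretoneurin, had 4.87, 4.79 and 4.84 CPM in high glucose and 6.99, 6.31 and 6.12 CPM in control. The high-glucose samples lay close together and below every control sample, and the gene was 1.34-fold lower (-0.42 ± 0.10, adjusted p = 0.00303). Scg3, secretogranin III, which carries granins to the granule membrane, had 0.533, 0.702 and 0.733 CPM in high glucose and 1.40, 0.874 and 1.01 CPM in control (-0.71 ± 0.27, adjusted p = 0.0445). Its p spanned 0.0227 to 0.176, and no call was made without high-glucose sample 1 (0.14), 2 (0.0636) or 3 (0.0546) and without control sample 1 (0.176) or 3 (0.0718). The call was also lost with plain library totals (0.0826), a single variance prior (0.052) and precision weights (0.0529).

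Of the 2 genes of endocytosis, Dnm1 was higher. Dnm1, the neuronal dynamin that pinches vesicles off the membrane, had 33.4, 35.8 and 35.0 CPM in high glucose and 29.0, 26.3 and 27.3 CPM in control. There was no overlap, and it was 1.26-fold higher (0.33 ± 0.05, adjusted p = 6.01e-05). Amph, amphiphysin, which brings dynamin to the neck of the forming vesicle, had 5.63, 3.70 and 4.08 CPM in high glucose and 9.04, 4.34 and 5.38 CPM in control. Sample 1 was the highest of its group in both, the groups overlapped, and the gene did not pass (-0.44 ± 0.23, adjusted p = 0.128). Without control sample 2 it passed (-0.66, adjusted p = 0.0262, within 0.0127 to 0.577 over its alternatives).

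Slc17a6 (ENSRNOG00000016147), the vesicular glutamate transporter that fills vesicles in most sensory neurons, had 1.17, 0.894 and 1.50 CPM in high glucose and 7.27, 6.96 and 6.46 CPM in control. These are 114 reads in high glucose and 608 in control, and no sample of one group came near the other (-2.55 ± 0.18, adjusted p = 5.89e-08). Under all alternatives run its log2 fold change stayed between -2.73 and -2.37. Of the neuronal markers named above as a list, Tubb3, a neuronal tubulin, was 2.60-fold lower and Uchl1, a ubiquitin hydrolase, 1.22-fold lower, while Avil, advillin of sensory neurons, averaged 7.51 ± 0.48 CPM in high glucose and 7.73 ± 0.66 CPM in control (SD, n = 3 each) and did not pass (-0.04 ± 0.09, adjusted p = 0.758). Some other markers of that list, named after their values were seen, also fell. Gap43, a growth cone protein, was 6.49-fold lower (0.858 ± 0.30 CPM in high glucose and 5.47 ± 0.67 CPM in control, SD, n = 3 each). Prph, the intermediate filament peripherin, was 6.37-fold lower, Stmn2, a tubulin-binding protein of growing axons, 4.57-fold lower and Nefl, the light neurofilament, 4.23-fold lower. Elavl4, a neuronal RNA-binding protein, was lower too, with 7 reads over the high-glucose samples and 63 over the control samples. The rest of the 14 did not pass. Nefh, another neurofilament, and Rbfox3 lay above 0 (0.51 ± 0.32 and 0.97 ± 0.83). Nefm, a neurofilament too, had -0.67 ± 0.27, Elavl3 -1.62 ± 0.85, Isl1 -1.74 ± 0.86 and Pou4f1 -1.98 ± 0.82. The median log2 fold change over the 14 markers was -1.68.

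The 9 genes with under 100 reads included several that are textbook markers of synapses and granules. Their summed level was 1.07 to 1.47 CPM in high glucose and 2.43 to 2.88 CPM in control. Of the 9, 5 were lower and 1 higher, where 14.7% of all mRNA genes with so few reads were called, 5.64% lower and 9.06% higher. Because the list was chosen with earlier results of these data known, this contrast is a description and not a test. Snap25, the plasma membrane SNARE of neurons, had 1, 1 and 0 reads in high glucose and 10, 9 and 8 reads in control. The rate of reads was 14.6-fold lower in high glucose, and the exact 95% interval from counting ran between 3.67 and 127. The log2 fold change from limma was -3.30 ± 0.64 (adjusted p = 0.000734), and -2.18 with 2 reads added in place of 0.5. Cplx1, the other complexin of the list, had 3, 5 and 8 reads in high glucose and 14, 25 and 18 in control (-1.91 ± 0.41, adjusted p = 0.00151). Syn2, synapsin II, had 6, 3 and 3 reads in high glucose and 12, 12 and 17 in control (-1.81 ± 0.45, adjusted p = 0.00395). Syp, synaptophysin, the classic vesicle marker, had 6, 3 and 7 reads in high glucose and 14, 20 and 16 in control (-1.73 ± 0.41, adjusted p = 0.00291). In these 4 genes every high-glucose sample lay below every control sample, and all 4 passed under each alternative that kept them.

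The other 5 scarce genes had calls that changed with the alternatives, or no call. Rab3c, a neuronal Rab3, had 0, 0 and 2 reads in high glucose and 4, 2 and 3 in control. This was a rate 4.87-fold lower, with counting bounds at 1.01 and 46.3, and limma gave -2.105 ± 0.812 (adjusted p = 0.0455). Alternatives put this p between 0.0128 and 0.145, and the call was lost on leaving out sample 1 or 2 of high glucose (0.117 and 0.122) or sample 1, 2 or 3 of control (0.145, 0.0597 and 0.103), with plain library totals (0.0538) and with a single variance prior (0.0649). Slc17a7, the transporter VGLUT1, had 7, 4 and 7 reads in high glucose and 0, 1 and 3 in control and was the scarce gene that was higher. Its rate was 4.16-fold higher with counting bounds at 1.37 and 16.9, and limma gave 2.085 ± 0.727 (adjusted p = 0.029). Alternatives put this p between 0.00835 and 0.0964, and the call was lost without high-glucose sample 1 (0.0963) or 3 (0.0781), without control sample 1 (0.0964) or 2 (0.0541), after quantile normalization (0.0585) and with a single variance prior (0.0764). Scg5, the chaperone 7B2 of prohormone convertase 2, had 6, 17 and 15 reads in high glucose and 10, 3 and 17 in control. Chga, chromogranin A, had 2, 2 and 7 reads in high glucose and 8, 2 and 1 in control. Chgb, chromogranin B, had 1, 0 and 1 reads in high glucose and 3, 1 and 2 in control, a rate 3.25-fold lower, with counting bounds at 0.58 and 32.9. The groups of these last genes overlapped, and a difference was not detectable at this depth (adjusted p from limma of 0.629, 0.945 and 0.199).

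Relatives were compared inside each library, where no scaling between libraries enters. The 11 pairs were chosen after their values were seen and are given without a test. For each 100 reads of Rims2 there were 40.5, 47.3 and 34.4 reads of Rims1 in the high-glucose libraries and 179, 166 and 174 in the control libraries. Rims1 thus had the more reads of the pair in every control library and the fewer in every high-glucose library. For each 100 reads of Sv2a there were 4.55, 4.00 and 3.06 reads of Sv2c in high glucose and 12.3, 11.3 and 11.7 in control. For each 100 reads of Syt11 there were 3.70, 3.56 and 3.22 reads of Syt4 in high glucose and 7.28, 7.94 and 8.66 in control. In these 3 pairs every high-glucose library lay below every control library. With reads summed over the 3 libraries of a group, the same order held for Syn2 per 100 Syn1 (1.83 in high glucose and 6.97 in control), Cplx1 per 100 Cplx2 (0.386 in high glucose and 1.22 in control) and Syp per 100 Sypl1 (0.316 in high glucose and 1.05 in control). Snap25 stood at 0.0762 reads per 100 of Snap23, the SNARE of non-neuronal cells, in high glucose and at 1.07 in control. Vamp1 per 100 Vamp2 went the other way, with 10.1, 11.3 and 9.52 in high glucose and 6.85, 7.12 and 9.09 in control. Nrxn2 per 100 Nrxn3 stood at 74.1 in high glucose and 19.2 in control, and Slc17a7 per 100 Slc17a6 at 15.8 in high glucose and 0.658 in control. The ratio of Rab3b to Rab3a overlapped between the groups, and that of the other 10 pairs did not. Taken singly, 57.6% of all mRNA genes did not overlap, and a share over pairs of genes was not computed. Because the pairs were chosen with their values known, their count does not measure how common such differences are.

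**Figure D3:**
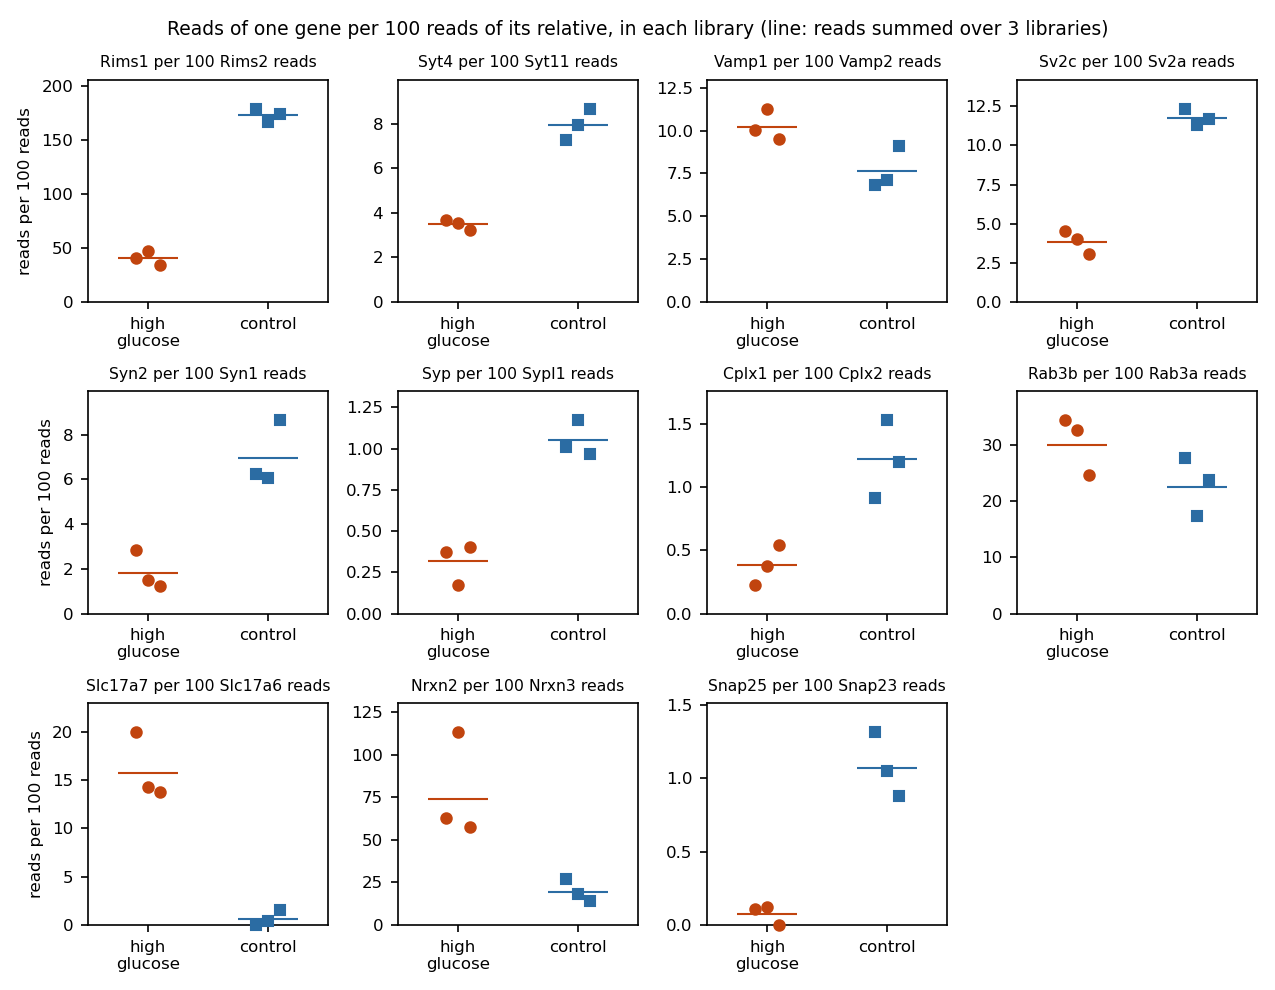
Reads of one gene per 100 reads of its relative in each library, for 11 pairs, with high glucose on the left and control on the right of each panel and a line at the ratio of reads summed over 3 libraries. Each axis starts at 0. The points of 10 pairs do not overlap between groups, and those of Rab3b per 100 Rab3a do. The pairs were chosen after their values were seen, and no background share was computed for pairs.

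The other genes of vesicle release gave a wider frame for the list. Of 114 listed, 105 were in the mRNA table, and 27 were higher, 24 lower and 54 did not pass, with a median log2 fold change of -0.01. Their share of calls was 48.6%, near the background of 50.5% (24.9% higher and 25.5% lower). Other synaptotagmins and calcium sensors had 8 of 14 higher and none lower, with a median of 0.73, and 8 of the 14 had under 100 reads. After quantile normalization this was 5 higher and 1 lower. Syt9, a sensor of fast release, was 2.15-fold higher (4.37 ± 0.44 CPM in high glucose and 2.03 ± 0.32 CPM in control, SD, n = 3 each), and Syt3 was 2.09-fold higher. Among other active zone and adhesion genes 8 of 20 were lower and 4 higher: Erc2, an active zone scaffold, was 2.35-fold lower, whereas Ppfia3, a liprin, was 2.28-fold higher and Nlgn2, a neuroligin, 1.47-fold higher.

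SNAREs and their regulators had 4 of 22 higher and 6 lower, or 7 higher and 2 lower with plain library totals. The shares over all mRNA genes, for this and the next role lists, were 24.9% higher, 25.5% lower and 50.5% called. With plain library totals all mRNA genes had 5932 higher and 2847 lower. Stxbp6, the SNARE-binding protein amisyn, was 2.17-fold lower (adjusted p = 2.08e-06). In the Rab3 and Rab27 cycle 3 of 13 were higher and 2 lower (6 higher and 1 lower with plain library totals), with Sytl4, granuphilin of granule docking, 2.40-fold higher and Sytl5, another Rab27 effector, 1.72-fold lower. Granule cargo and processing genes had 4 of 9 higher and 1 lower. The lower one was Vgf, a neuropeptide precursor, at 3.09-fold (-1.63 ± 0.24, adjusted p = 8.6e-05), while Ptprn and Cpe, a granule membrane protein and a peptide-processing enzyme, were 1.18-fold and 1.15-fold higher. Of 12 genes of endocytosis 3 were higher and 4 lower (6 higher and 2 lower with plain library totals). Snap91, the neuronal clathrin adaptor AP180, was 3.04-fold lower and its widely made relative Picalm 1.34-fold lower, and Sh3gl2, endophilin A1, was 2.74-fold higher. Other vesicle membrane genes had 1 of 11 higher and 2 lower, among them Synpr, synaptoporin, at 2.40-fold lower with groups that overlapped (adjusted p = 0.022). Its p spanned 0.00367 to 0.0966, and the call was lost without high-glucose sample 1 (0.0966) or 3 (0.0566), without control sample 1 (0.0743) or 2 (0.085), and with a single variance prior (0.095). Of 4 other vesicular transporters, 1 passed: Slc6a17, a vesicular amino acid carrier, was 1.88-fold lower (-0.91 ± 0.13, adjusted p = 7.28e-05).

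**Figure D4:**
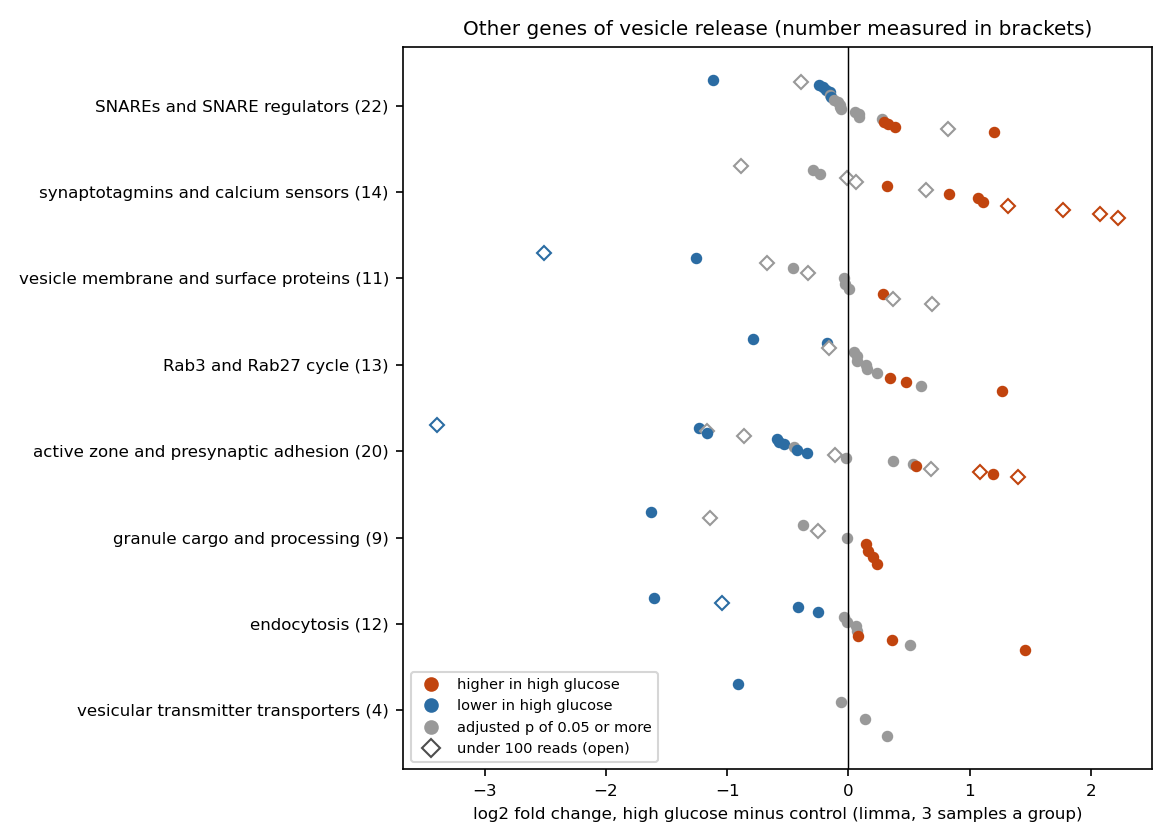
Log2 fold change (high glucose minus control) of 105 other genes of vesicle release by role, from limma with 3 samples per group. Filled circles had at least 100 reads and open diamonds fewer, and grey marks did not pass. The synaptotagmins and calcium sensors hold 8 genes in the higher group and none in the lower, or 5 and 1 after quantile normalization, and the active zone genes hold 4 in the higher and 8 in the lower. Over all mRNA genes 24.9% are higher and 25.5% lower.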

How the data were processed

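RNA of 6 samples was sequenced, and the authors deposited 1 table of mRNA genes and 1 of lncRNA rows holding log2 values, voom-normalized per the file names. The submitters' processing notes name HISAT2 2.1.0 and featureCounts 1.6.0, the read trimmer fastp 0.19.4, and Rnor_6.0 as the rat build, with no settings. The annotation version and the strand of counting were not given in the sources used here, so reads of overlapping genes cannot be told apart. The labels' growth protocol mentions fixation with paraformaldehyde, without saying whether it applied to the sequenced cells. That the DM samples are the high-glucose ones is read from the labels, which do not state it in those words. Gene coordinates are not printed, because the tables at hand are of another build.

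The deposited log2 values step in whole reads plus 0.5, and 100% of them came within 0.01 of a whole read. CPM here are these reads over the authors' scaled library sizes, which were 1.03 to 1.05 times the read total in high glucose and 0.959 to 0.964 times in control. Every gene in the mRNA table had reads in at least 3 samples. Fits used limma 3.58.1 in R 4.3.3 on the deposited values of the whole table, with group as the term, a mean-variance trend, two-sided tests and Benjamini-Hochberg adjustment over all genes of the table (threshold 0.05). The method was tested on simulated data. Exact (Clopper-Pearson) 95% intervals on reads cover counting error only. As a check for a library deposited more than once, the mean chi-square per gene between samples was 3.00 to 4.81 within groups and 86.6 to 94.1 between them, and no pair of samples differed by counting error alone. This does not show that the samples are biological replicates. The members and lists were chosen with earlier results of these data known. All members are named. Of the other genes of the pathway, up to 3 in each direction per role are named, by size of change among those past the threshold with at least 100 reads. Of the markers the leading ones by level are named. The other neuronal markers, Snap23 and Sv2b were added after their values were seen. Some genes that this rule names are not reported here. Plots came from matplotlib 3.10.9 (Python 3.11.15).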

Additional observations from a re-analysis of the deposited data

How the results depend on the processing

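Alternatives were a replicate block, each sample left out, quantile normalization, plain library totals, 2 reads added in place of 0.5, a single variance prior, voom precision weights, and leaving out genes with a mean log2 value under 0 or the lowest 25% of genes. The count of genes of the list that passed was 24, between 20 and 22 with a sample left out and between 18 and 24 under the other settings, of which the filters on low genes left out 12 and 11 of the 36. Of the 24, 17 passed under every alternative that kept them. The 51 calls among other genes of vesicle release ranged from 42 to 48 with a sample left out and from 39 to 56 otherwise, and the 29 marker calls from 25 to 31. Summing rows of a symbol was not run, because each member stood on 1 row. Sv2b was fitted after it was seen in the lncRNA table and lay between -3.26 and -2.87 in all its settings.

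Same-numbered samples did not deviate together (r of -0.0921, -0.0433 and 0.0255 over 12247 genes), and no high-glucose sample correlated best with its own number. With a replicate block 8052 genes passed in place of 8354, and 23 of the list in place of 24: Rab3c (adjusted p = 0.0514) and Scg3 (0.0708) did not pass and Amph did (0.0127).

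Values that changed sign belonged to genes that had not passed. With a sample left out, Sypl1 (-0.01) ranged from -0.0642 to 0.0161, Scg5 (0.37) from -0.315 to 0.8779, Chga (0.07) from -0.4713 to 0.825, and of the markers Avil (-0.04) from -0.1067 to 0.0153 and Tek from -0.0821 to 0.0523. After quantile normalization Sypl1 had 0.0172, Chga -0.1787, Tek -0.007 and Pdgfrb 0.1941 (adjusted p = 8.07e-06). Plain totals gave Sypl1 0.1003, Avil 0.0743, Apoe 0.0395 and Pdgfrb 0.0897 (0.00239). Chga had -0.0248 with 2 reads added and Tek -0.0014 with precision weights. Of the 9 scarce genes, Rab3c and Slc17a7 had calls that changed with 1 sample left out.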
